A study of Mus musculus with 16 samples.

Results

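The uptake genes described here are 9 genes by which macrophages recognise and engulf dying cells. They are the TAM receptors Mertk, Axl and Tyro3, their ligands Gas6 and Pros1, the bridging protein Mfge8, the receptor Trem2, the engulfment adaptor Elmo1 and annexin A1, Anxa1. They were taken by name from 47643 Ensembl gene identifiers in the count files, with earlier results of these data already known. All 9 were matched through GENCODE M21 on GRCm38.

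Removal of apoptotic cells, called efferocytosis, starts when phosphatidylserine appears on the outer face of a dying cell. Gas6 and protein S (Pros1) are vitamin K dependent proteins that bind this lipid with one end and a TAM receptor tyrosine kinase with the other. Gas6 engages all TAM receptors, while protein S engages Tyro3 and Mertk. Mertk is best known as the uptake receptor of mature tissue macrophages, Axl is present on resting airway macrophages of the mouse, and signalling through both dampens inflammatory responses.

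RNA was measured by QuantSeq, which reads the 3' ends of messenger RNA, in 16 libraries from C57BL/6 wild type mice with no treatment given in the labels. BALF denotes cells washed from the airways by bronchoalveolar lavage, PLF denotes peritoneal lavage cells, BMDM denotes macrophages derived from bone marrow, and mexAM denotes alveolar macrophages cultured ex vivo. Each of these groups held 3 libraries, of mice 1, 2 and 4. The last 4 libraries were of alveolar macrophages grown from pooled lavages, at passages 8 and 13 (pool 1) or 5 and 10 (pool 2). The age and sex of the mice, how many mice made up a pool, and the medium and passage of the mexAM cultures are not given in the labels. Neither lavage was described as purified, so BALF and PLF are mixtures of cells, and in all these bulk libraries fewer cells of a type and less RNA per cell cannot be told apart.

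A library held between 827791 and 2884679 counts in genes, so that 1 count stood for 0.347 to 1.21 CPM, the count scaled to 1000000 counts in genes of the library. Levels below are CPM, given as mean ± SD over 3 mice unless stated otherwise. Fold changes are on the log2 scale ± standard error from edgeR's quasi-likelihood test, and a gene was called when its Benjamini-Hochberg adjusted p over all genes was under 0.05. These folds use TMM scaling, which differs from plain library totals mainly for BALF. With plain totals the median gene was 0.22 higher in mexAM than in BALF, 0.32 lower in BALF than in BMDM, 0.27 lower in BALF than in PLF and 0.20 higher in the pools than in BALF. The share of called genes that were higher in the first group then moved from 50.6% to 67.4%, from 48.5% to 30.5%, from 48.4% to 33.1% and from 52.4% to 67.7% in these comparisons. CPM ratios against BALF are therefore not the fitted folds.

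The labelled cell types carried their markers. A list of 10 alveolar macrophage genes, among them Siglecf, Car4 and Chil3, summed to 12786 ± 2386 CPM in BALF and 10217 ± 1922 CPM in mexAM, against 417 ± 178 in BMDM and 470.2 ± 60.5 in PLF. A list of 10 peritoneal macrophage genes, among them Gata6 and Prg4, summed to 6340 ± 137 CPM in PLF and 11.3 to 54.7 CPM in the mean of the other 3 groups of mice. Other cells were present too. All 8 B cell genes had counts in PLF and summed to 2436 ± 165 CPM, and 6 of 8 eosinophil and mast cell genes summed to 1965 ± 93.5 CPM there, led by the mast cell protease Cpa3. BALF of mice 2 and 4 stood apart by haemoglobin, with 267 and 421 CPM of Hbb-bs against 20.4 CPM in mouse 1. BMDM of mouse 4 stood apart by 8 neutrophil genes, which summed to 4913 CPM there and to 2519 and 1751 CPM in BMDM of mice 1 and 2.

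The macrophage types differed in which uptake genes they carried. BALF held Mertk and Axl at similar CPM in mice 1 and 2 and more Axl than Mertk in mouse 4, with little Trem2 and next to no Gas6. The cultured alveolar macrophages held Mertk above Axl in every library. BMDM held Mertk and Axl at nearly equal CPM together with Gas6 and Trem2, which were low elsewhere. PLF held the least Mertk and Axl. It held the most Pros1 in CPM, where its fitted difference from BALF was small and not called. The plot of all 9 genes in all libraries shows these patterns.

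**Figure D1:**
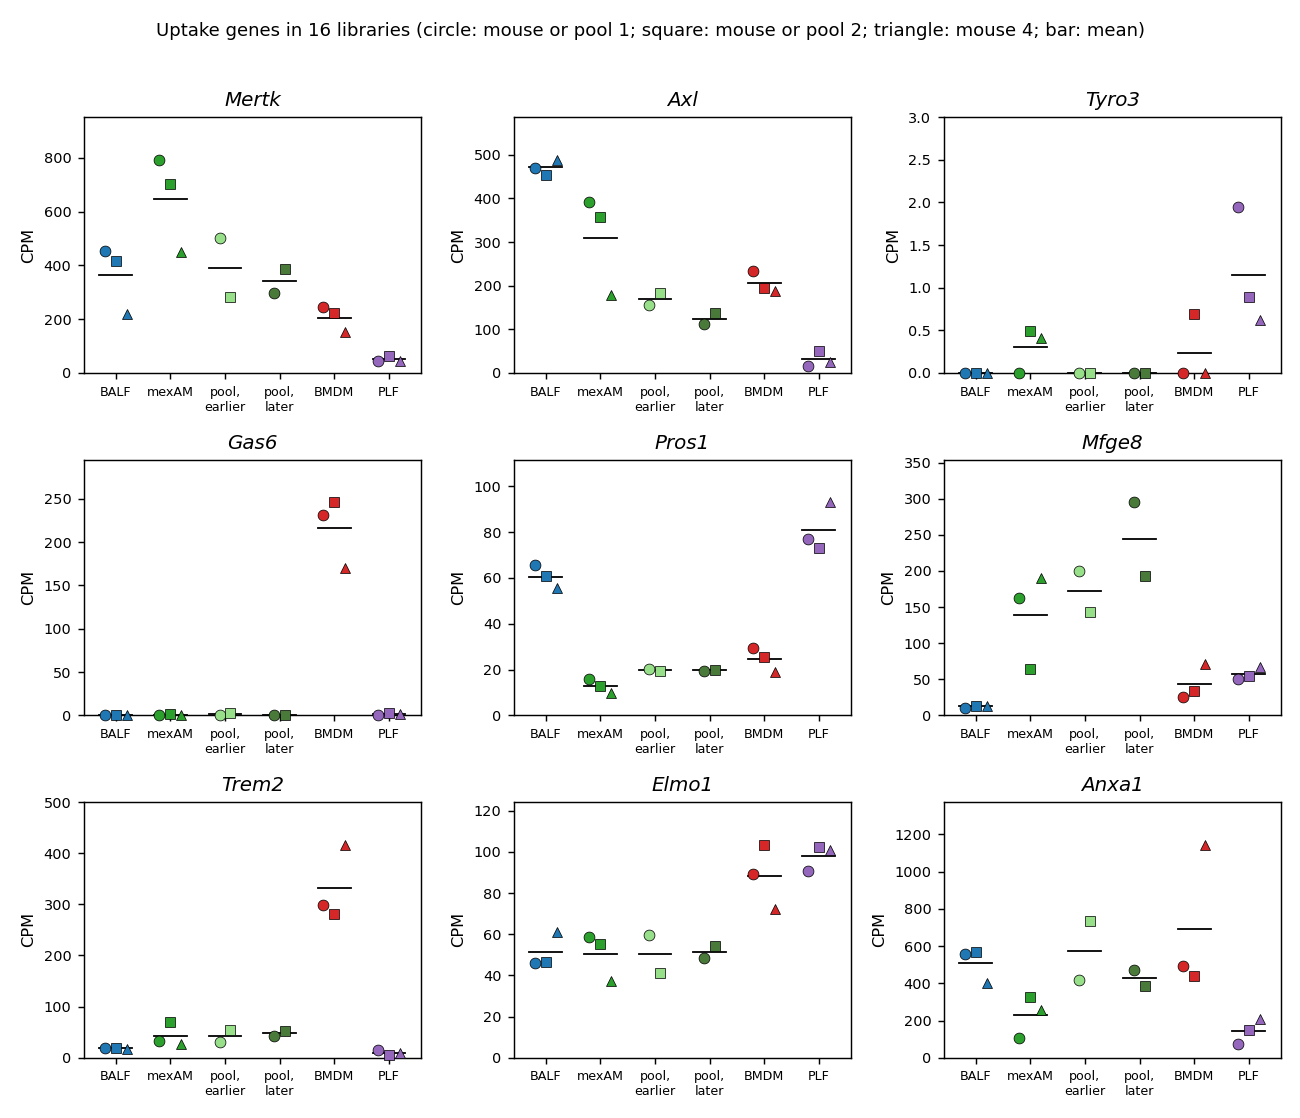
CPM of the 9 uptake genes (linear vertical axis from 0, 1 panel per gene) in every library, by group on the horizontal axis. Points are libraries and bars are group means. Gas6 stands at 170.4 to 246.2 CPM in BMDM and at 2.7 CPM or less in all other libraries, while Tyro3 does not exceed 1.95 CPM anywhere.

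Among these genes, Mertk and Axl varied together across libraries, as did Gas6 and Trem2. Pearson's r of log2 CPM over the 16 libraries was 0.83 for Mertk with Axl and 0.81 for Gas6 with Trem2. These are descriptions across libraries that fall into a few cell types, and the Gas6 and Trem2 value rests on BMDM being high for both. The Mertk and Axl value includes PLF, which was low for both. From BALF to mexAM these genes went opposite ways, at +0.64 for Mertk and -0.80 for Axl, neither of them called. The promoters of these 4 genes are printed below because of these r values over all libraries. The windows are RefSeq's, on GRCm38.p6, from 250 bases before to 50 bases after the annotated start, read 5′ to 3′ on the strand of the gene. Mertk lies at chr2:128698665-128698964 on the plus strand, Axl at chr7:25788684-25788983 on the minus strand, Gas6 at chr8:13494486-13494785 on the minus strand and Trem2 at chr17:48346151-48346450 on the plus strand. Capitals mark matches to the motifs named after the sequences.
Mertk: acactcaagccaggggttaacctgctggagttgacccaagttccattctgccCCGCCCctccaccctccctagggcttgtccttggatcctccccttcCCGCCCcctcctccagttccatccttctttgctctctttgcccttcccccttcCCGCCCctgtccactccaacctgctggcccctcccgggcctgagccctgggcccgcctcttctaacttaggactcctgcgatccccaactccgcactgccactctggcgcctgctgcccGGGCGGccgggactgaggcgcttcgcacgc
Axl: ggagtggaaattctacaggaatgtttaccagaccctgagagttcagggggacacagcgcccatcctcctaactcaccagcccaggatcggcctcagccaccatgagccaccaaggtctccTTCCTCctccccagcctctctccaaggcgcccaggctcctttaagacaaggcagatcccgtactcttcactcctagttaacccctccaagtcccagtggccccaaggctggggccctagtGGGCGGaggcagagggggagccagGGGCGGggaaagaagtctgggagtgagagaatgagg
Gas6: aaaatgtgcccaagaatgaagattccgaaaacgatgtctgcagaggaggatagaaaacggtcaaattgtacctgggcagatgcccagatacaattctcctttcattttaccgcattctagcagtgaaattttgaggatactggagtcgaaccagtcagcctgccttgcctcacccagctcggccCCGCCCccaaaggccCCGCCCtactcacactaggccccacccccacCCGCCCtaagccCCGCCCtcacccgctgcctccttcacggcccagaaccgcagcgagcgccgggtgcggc
Trem2: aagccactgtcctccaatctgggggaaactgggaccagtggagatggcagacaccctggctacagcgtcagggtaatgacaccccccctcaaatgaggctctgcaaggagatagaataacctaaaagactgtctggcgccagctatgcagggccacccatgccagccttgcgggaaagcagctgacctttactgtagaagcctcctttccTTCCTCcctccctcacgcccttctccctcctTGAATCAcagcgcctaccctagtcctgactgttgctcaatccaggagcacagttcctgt

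The motifs were searched on both strands. The GC box GGGCGG matched 4 times in the Mertk window, 2 times in the Axl window, 4 times in the Gas6 window and not in the Trem2 window, and 35.66% of the 32851 promoter windows of this length hold it. The PU.1 box GAGGAA matched 1 time in the Axl window and 1 time in the Trem2 window, and 28.28% of all windows hold it. The AP-1 motif TGANTCA matched 1 time, in the Trem2 window, and 7.808% of all windows hold it. No match in these 4 windows was found for CACGTG (7.15% of all windows), TGCTGA (19.48%), AGATAA (11.18%), TGACGTCA (1.79%), or TTCNNNGAA (8.298%), nor for 2 AGGTCA blocks in a row with 1 base (0.03957%) or 4 bases (0.01522%) between them. None of the matches in these windows overlapped another. Of these motifs, Mertk and Axl thus shared the GC box, and Gas6 and Trem2 shared none. The GC box was not particular to Mertk and Axl, since it also matched in windows of Gas6, Tyro3, Pros1, Mfge8 and Elmo1. Axl and Trem2 shared the PU.1 box, which was not particular to them and also matched in windows of Mfge8, Elmo1 and Anxa1.

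Mertk (ENSMUSG00000014361, chromosome 2, 128698956 to 128802894, plus strand) encodes the receptor kinase that couples bound apoptotic cells to ingestion. Its level was 454.2, 417.0 and 220.7 CPM in BALF of mice 1, 2 and 4, and 792.7, 701.2 and 451.4 CPM in mexAM. It was 245.1, 221.5 and 151.4 CPM in BMDM and 46.1, 64.2 and 43.2 CPM in PLF. The order of means was mexAM (648 ± 177), BALF (364 ± 125), BMDM (206 ± 48.7) and PLF (51.1 ± 11.4). PLF lay below every other library. The lowest mexAM library was just under the highest BALF library, and BALF of mouse 4 lay inside the range of BMDM. In all 4 groups, the library of mouse 4 was the lowest.

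Mertk was higher in mexAM than in BMDM by 1.74 ± 0.28 (adjusted p = 8.59e-05) and higher than in PLF by 3.73 ± 0.32 (adjusted p = 4.11e-08), in 3 of 3 mice each. BALF exceeded PLF by 3.09 ± 0.31 (adjusted p = 5.72e-07) and BMDM by 1.11 ± 0.28 (adjusted p = 0.00494), again in 3 of 3 mice. PLF against BMDM was at -1.98 ± 0.30 (adjusted p = 7.01e-05). Between mexAM and BALF the difference was +0.64 ± 0.28 with 3 of 3 mice higher in culture and was not called (adjusted p = 0.0941). With the mouse as a block it was +0.65 and called (adjusted p = 0.0208). It was also called with library totals (+0.83, adjusted p = 0.0308), without a filter on low counts (+0.66, adjusted p = 0.0182) and without mexAM of mouse 4 (+0.86, adjusted p = 0.0294). The 2 neighbours at the top of the order were thus not separated by the test as designed.

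Axl (ENSMUSG00000002602, chromosome 7, 25757273 to 25788705, minus strand) encodes the TAM receptor that Gas6 engages and protein S does not. Its level was 469.8, 454.6 and 488.5 CPM in BALF, and 392.6, 357.6 and 179.6 CPM in mexAM, for mice 1, 2 and 4. It was 233.0, 195.4 and 187.5 CPM in BMDM and 16.9, 49.9 and 25.9 CPM in PLF. BALF held the highest Axl, at 471 ± 17.0 CPM, with no overlap with another group. The mexAM of mouse 4 fell below all 3 BMDM libraries, while mexAM of mice 1 and 2 were above them. PLF was again the lowest, at 30.9 ± 17.1 CPM.

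Axl was higher in BALF than in PLF by 4.22 ± 0.35 (adjusted p = 8.25e-08) and than in BMDM by 1.49 ± 0.30 (adjusted p = 9.07e-04). It was higher in mexAM than in PLF by 3.42 ± 0.34 (adjusted p = 3.89e-07), and PLF differed from BMDM by -2.74 ± 0.34 (adjusted p = 9.99e-06). Each of these held in 3 of 3 mice. Neighbouring levels were less clear. Axl in mexAM against BALF was at -0.80 ± 0.29 with 3 of 3 mice lower in culture, and just missed the threshold (adjusted p = 0.0506). That difference was called with the mouse as a block (-0.86, adjusted p = 0.0365), by DESeq2 (-0.80, adjusted p = 0.0409), with Gm42418 and mitochondrial genes removed (-0.81, adjusted p = 0.0466), with no filter (-0.78, adjusted p = 0.00318) and without mexAM of mouse 1 (-1.02, adjusted p = 0.0311). Axl in mexAM against BMDM was at +0.68 ± 0.30 (adjusted p = 0.0723), and was called with no filter (+0.67, adjusted p = 0.0101) and without mexAM of mouse 4 (+0.98, adjusted p = 0.00607).

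Tyro3 (ENSMUSG00000027298, chromosome 2, 119797733 to 119818104, plus strand), the TAM receptor best known from the nervous system, had 8 counts in all 16 libraries together. PLF held 5 of them, mexAM 2 and BMDM 1, and BALF and the pools held 0. A count of 0 allows up to 0.76 CPM in BALF and 0.48 CPM in the pools. Tyro3 did not pass the filter on low counts and was not tested.

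The makeup of the receptor pool was described by the share of Axl in the summed CPM of Mertk, Axl and Tyro3. QuantSeq counts 3' ends, and these counts are not divided by transcript length. Whether the 3' ends of these genes are counted equally well was not tested, so the share is best compared between groups. Axl took 50.8%, 52.2% and 68.9% of the sum in BALF and 48.7%, 46.8% and 55.3% in BMDM, for mice 1, 2 and 4. It took 33.1%, 33.8% and 28.4% in mexAM and 26.0%, 43.4% and 37.2% in PLF. In pool 1 it was 23.8% at passage 8 and 27.3% at passage 13, and in pool 2 it was 39.3% at passage 5 and 26.3% at passage 10. All 7 libraries of cultured alveolar macrophages thus lay below all BALF and BMDM libraries, as in the plot of Axl against Mertk. The receptor sum itself was 959 ± 290 CPM in mexAM, 835 ± 112 in BALF, 412 ± 69.8 in BMDM and 83.2 ± 27.7 in PLF. No test was made on the share.

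**Figure D2:**
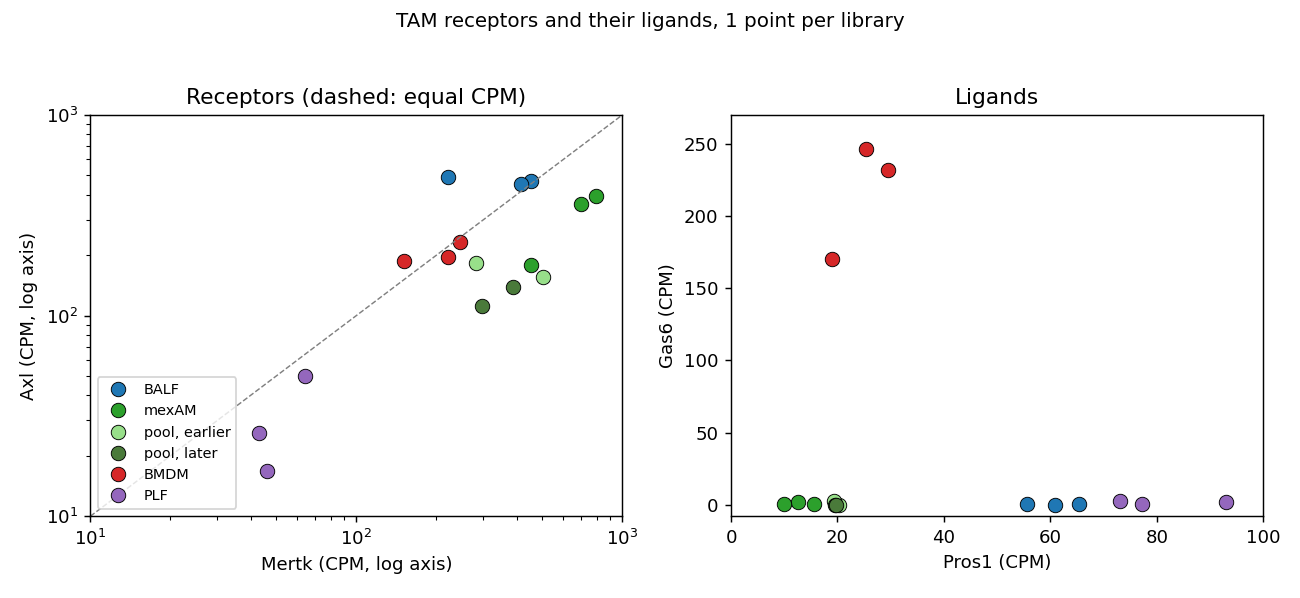
Left, Axl against Mertk in CPM on log axes, with a dashed line at equal CPM. Right, Gas6 against Pros1 in CPM on linear axes. Each point is 1 library, coloured by group. The mexAM, pool and PLF libraries lie below the line of equal receptor CPM, and the BMDM libraries alone lie high on the Gas6 axis, at 170.4 to 246.2 CPM.

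In PLF the low receptor levels stood beside the B cell and mast cell transcripts named above, whose part in the result was not tested. Macrophage genes differed in their level in PLF. Adgre1, the F4/80 antigen, reached 694, 648 and 719 CPM in PLF, for mice 1, 2 and 4, against 236, 222 and 174 CPM in BALF, while BMDM held 1529, 1330 and 1313 CPM. Cd68, a lysosomal protein of macrophages, was lower in PLF, at 173, 190 and 224 CPM, than in BALF, at 770, 950 and 651 CPM. Tyrobp was at 594 to 663 CPM in PLF and 912 to 1191 CPM in BALF, and Mrc1, the mannose receptor, at 27.1 to 44.6 and 885 to 911 CPM. Set against these genes, the order of Mertk in PLF depended on the reference. Per unit of Adgre1, Mertk was 0.060 to 0.099 in PLF, 0.115 to 0.167 in BMDM and 1.271 to 1.924 in BALF. Per unit of Cd68, PLF (0.192 to 0.338) and BMDM (0.178 to 0.315) overlapped, below BALF (0.339 to 0.590). Per unit of Tyrobp, PLF (0.069 to 0.098) lay below BMDM (0.129 to 0.235) and BALF (0.242 to 0.446). Per unit of Lyz2, PLF (0.0029 to 0.0045) lay below BMDM (0.0115 to 0.0146) and BALF (0.0171 to 0.0397). Per unit of Spi1, PLF (0.158 to 0.362) lay below BMDM (0.458 to 0.663) and BALF (0.559 to 1.592). Per unit of Csf1r, PLF (0.081 to 0.115) and BMDM (0.114 to 0.142) overlapped, below BALF (1.44 to 5.14). Per unit of Mrc1, PLF (1.203 to 1.591) lay above BMDM (0.255 to 0.319) and BALF (0.242 to 0.513). Of these references Mrc1 alone put PLF above both, and Mrc1 itself was low in PLF. Per unit of Fcgr1, which was only at 0.892 to 1.85 CPM in PLF, Mertk was 23.3 to 72 in PLF. It was 1.15 to 2.15 in BMDM and 20.4 to 137 in BALF. Axl in PLF lay below BMDM per unit of Adgre1, Tyrobp, Lyz2, Spi1 and Csf1r. Per unit of Cd68 they overlapped, and per unit of Mrc1 PLF (0.441 to 1.12) lay above BMDM (0.225 to 0.395).

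Gas6 (ENSMUSG00000031451, chromosome 8, 13465374 to 13494490, minus strand) was a BMDM transcript in these data. Its level was 231.6, 246.2 and 170.4 CPM in BMDM of mice 1, 2 and 4. BALF held 2 counts over its 3 libraries, mexAM 6 and PLF 7, and the pools held 2 counts, both in pool 2 at passage 5. By summed counts BMDM exceeded BALF by a ratio of 427 (95% exact binomial interval 118 to 3529), mexAM by 224 (102 to 611) and PLF by 132 (64.1 to 330). These intervals cover counting error only. The adjusted p of these differences was 4.08e-10, 6.28e-11 and 5.39e-10, with 3 of 3 mice higher in BMDM. Tmem255b overlaps the 3' end of Gas6 and had 0 counts. The differences of Gas6 between BALF, mexAM and PLF rest on at most 7 counts in each of these groups and were not called (adjusted p = 0.283 to 0.667).

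Pros1 (ENSMUSG00000022912, chromosome 16, 62854307 to 62929346, plus strand) was highest in the lavage cells. PLF held 77.2, 73.1 and 93.1 CPM of it and BALF 65.5, 60.9 and 55.6 CPM. It was at 29.5, 25.4 and 19.0 CPM in BMDM and at 15.7, 12.7 and 9.9 CPM in mexAM, for mice 1, 2 and 4. The fresh lavage cells of both sites lay above all BMDM and cultured libraries. PLF and BALF did not overlap in CPM, yet their fitted difference was small and not called (BALF minus PLF -0.17 ± 0.21, adjusted p = 0.558).

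In culture Pros1 was lower than in BALF, by -2.47 ± 0.24 (adjusted p = 1.05e-06) in 3 of 3 mice, and lower than in PLF, by -2.64 ± 0.24 (adjusted p = 6.76e-08). BALF and PLF were above BMDM by 1.58 ± 0.23 (adjusted p = 3.16e-05) and 1.76 ± 0.23 (adjusted p = 1.08e-05). The difference of mexAM from BMDM, -0.89 ± 0.25 (adjusted p = 0.00818), lost its call without BMDM of mouse 1 (-0.75, adjusted p = 0.0528) or mexAM of mouse 4 (-0.69, adjusted p = 0.0590). Of the summed CPM of both ligands, Gas6 was 88.7% to 90.7% in BMDM and 0% to 13.3% in all other libraries. By CPM of RNA, BMDM thus carried mostly Gas6 and the other cells mostly Pros1, with the limit named for the receptor share.

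Mfge8 (ENSMUSG00000030605, chromosome 7, 79133768 to 79149060, minus strand) encodes a secreted protein that links phosphatidylserine to integrins of the phagocyte. BALF of mice 1, 2 and 4 held 10.8, 13.2 and 13.1 CPM, and mexAM 163.2, 64.7 and 190.7 CPM. It was at 50.6, 54.4 and 66.6 CPM in PLF and at 25.6, 33.6 and 71.1 CPM in BMDM. Every mexAM library exceeded every BALF library at least 4-fold in CPM, and mexAM was the highest of the 4 groups of mice although its mouse 2 library overlapped PLF and BMDM.

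Mfge8 was higher in mexAM than in BALF by 3.28 ± 0.44 (adjusted p = 6.87e-05), the largest called rise of these genes in that comparison. It was higher in mexAM than in BMDM by 1.75 ± 0.38 (adjusted p = 0.00149) and than in PLF by 1.32 ± 0.37 (adjusted p = 0.00727), with 3 of 3 mice each. BALF was lower than PLF by -1.97 ± 0.46 (adjusted p = 0.00294), a call lost with BALF of mouse 1 alone (-2.14, adjusted p = 0.0662). BALF was lower than BMDM by -1.53 ± 0.46 (adjusted p = 0.0162), a call lost without BMDM of mouse 4 (-0.96, adjusted p = 0.0814), without BALF of mouse 1 (-1.44, adjusted p = 0.0687) and with BALF of mouse 1 alone (-1.70, adjusted p = 0.150). PLF against BMDM was at +0.44 (adjusted p = 0.410), and at +1.00 and called without BMDM of mouse 4 (adjusted p = 0.0439). BMDM of mouse 4 is the library with the most neutrophil transcripts. Its mesothelium and fibroblast genes summed to 107 CPM, against 33.8 and 37.7 CPM in BMDM of mice 1 and 2. Its alveolar macrophage genes summed to 623 CPM, against 310 and 319 CPM. The part of these transcripts was not tested.

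Trem2 (ENSMUSG00000023992, chromosome 17, 48346401 to 48354147, plus strand) encodes a lipid-binding receptor that signals through the adaptor DAP12. It was at 297.8, 281.1 and 416.7 CPM in BMDM and at 33.1, 69.1 and 27.6 CPM in mexAM, for mice 1, 2 and 4. BALF held 18.6, 19.3 and 17.0 CPM and PLF 14.9, 5.4 and 9.2 CPM. BMDM was the high group with no overlap, and the other 3 groups were ordered mexAM, BALF and PLF without overlap.

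BMDM exceeded the others in Trem2, with folds of -2.85 ± 0.33 for mexAM (adjusted p = 3.46e-06), -3.89 ± 0.37 for BALF (adjusted p = 5.89e-07) and -4.98 ± 0.40 for PLF (adjusted p = 1.15e-07) against it. Trem2 was higher in mexAM than in PLF by 2.13 ± 0.40 (adjusted p = 2.94e-04). The rise from BALF to mexAM, 1.04 ± 0.37, was called (adjusted p = 0.0462) but was lost with the mouse as a block (+1.01, adjusted p = 0.0718). It was also lost without any 1 BALF library (+1.00 to +1.06, adjusted p = 0.104 to 0.117), without mexAM of mouse 2 (+0.50, adjusted p = 0.270) and with BALF of mouse 1 alone (+1.00, adjusted p = 0.306). BALF against PLF, +1.08 ± 0.44, was not called (adjusted p = 0.0637), and was called by DESeq2 (+1.04, adjusted p = 0.0467), with no filter (+1.08, adjusted p = 0.00478) and without PLF of mouse 1 (+1.55, adjusted p = 0.0251).

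Elmo1 (ENSMUSG00000041112, chromosome 13, 20090596 to 20608353, plus strand) encodes the adaptor that, with DOCK proteins, activates Rac beneath the phagocytic cup. It was at 90.9, 102.6 and 101.1 CPM in PLF, and at 89.4, 103.5 and 72.3 CPM in BMDM. BALF held 46.3, 46.7 and 61.0 CPM and mexAM 58.7, 55.5 and 37.5 CPM. The alveolar groups overlapped each other and lay below PLF and BMDM. Elmo1 was lower in mexAM than in PLF by -0.91 ± 0.22 (adjusted p = 0.00192) and than in BMDM by -0.73 ± 0.22 (adjusted p = 0.0122). The latter call was lost without BMDM of mouse 2 (-0.59, adjusted p = 0.0709) or mexAM of mouse 4 (-0.52, adjusted p = 0.0830). BALF was lower than PLF by -0.68 ± 0.23 (adjusted p = 0.0225), a call lost without BALF of mouse 1 (-0.62, adjusted p = 0.0849) or mouse 2 (-0.62, adjusted p = 0.0752), without PLF of mouse 4 (-0.67, adjusted p = 0.0571) and with BALF of mouse 1 alone (-0.83, adjusted p = 0.0822). BALF against BMDM (-0.49 ± 0.22, adjusted p = 0.0953) was called with library totals (-0.79, adjusted p = 0.00875). PLF against BMDM was at +0.19 (adjusted p = 0.531) and mexAM against BALF at -0.23 (adjusted p = 0.474).

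Anxa1 (ENSMUSG00000024659, chromosome 19, 20373428 to 20390944, minus strand) encodes annexin A1, a phosphatidylserine-binding protein that acts on formyl peptide receptors to resolve inflammation. BMDM of mice 1, 2 and 4 held 490.7, 441.6 and 1144.8 CPM, and BALF 558.1, 569.2 and 400.5 CPM. It was at 108.6, 327.0 and 257.8 CPM in mexAM and at 74.6, 150.7 and 209.6 CPM in PLF. BMDM and BALF overlapped and lay above mexAM and PLF, which overlapped each other. The gene 1500015L24Rik overlaps the 3' end of Anxa1 and had 0 counts.

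Anxa1 was higher in BALF than in PLF by 2.07 ± 0.47 (adjusted p = 0.00327), and PLF was at -2.24 ± 0.47 against BMDM (adjusted p = 0.00226), in 3 of 3 mice each. In mexAM it was lower than in BMDM by -1.51 ± 0.46 (adjusted p = 0.0163), a call lost without BMDM of mouse 4 (-0.91, adjusted p = 0.0880), without mexAM of mouse 1 (-1.18, adjusted p = 0.0540) and with no filter (-1.51, adjusted p = 0.0730). It was lower in mexAM than in BALF by -1.34 ± 0.46 (adjusted p = 0.0418). That call was lost without any 1 BALF library (-1.26 to -1.48, adjusted p = 0.0596 to 0.0988), without mexAM of mouse 1 (-1.01, adjusted p = 0.126) or mouse 4 (-1.39, adjusted p = 0.0925), with library totals (-1.14, adjusted p = 0.0735), with no filter (-1.31, adjusted p = 0.159) and with BALF of mouse 1 alone (-1.49, adjusted p = 0.171). BALF against BMDM (-0.17 ± 0.45, adjusted p = 0.806) and mexAM against PLF (+0.73 ± 0.46, adjusted p = 0.191) were not called.

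**Figure D3:**
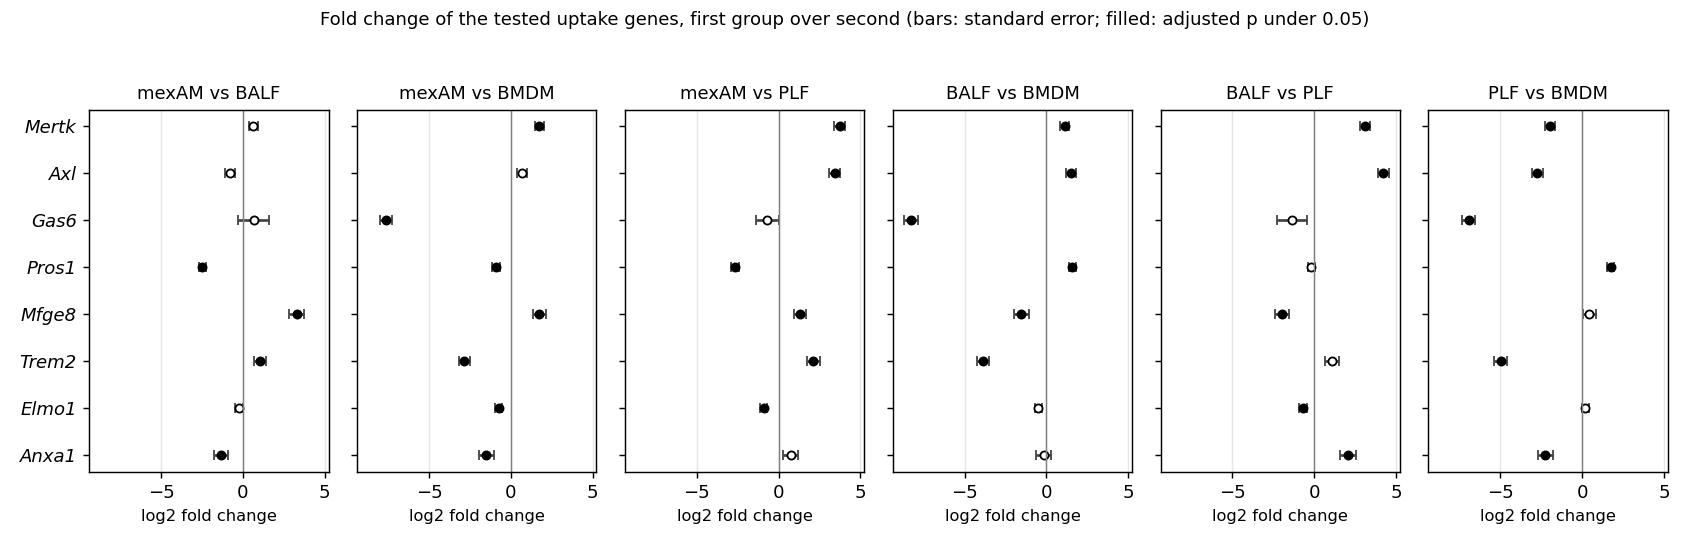
Log2 fold change (horizontal axis) of the 8 tested uptake genes (vertical axis) in the 6 comparisons of BALF, mexAM, BMDM and PLF, first group over second, with bars for the standard error and filled points where the adjusted p was under 0.05. Mertk and Axl are filled on the right against PLF in both alveolar groups, Gas6 is filled on the far left wherever BMDM is the second group, and the Gas6 fold there depends on the few counts of the other group.

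Counted by comparison, 8 of the 9 genes were tested. In mexAM against BALF 4 were called, Mfge8 and Trem2 higher and Pros1 and Anxa1 lower, where 30% of all genes tested were called, 15.2% higher and 14.8% lower. Without any 1 BALF library, or with BALF of mouse 1 alone, 2 of these calls were left. In mexAM against BMDM 7 were called, 2 higher and 5 lower, where 44.6% of all genes were called, 21.5% higher and 23% lower. In mexAM against PLF 6 were called, 4 higher and 2 lower, where 57.9% of all genes were called, 28.4% higher and 29.6% lower. In BALF against BMDM 6 were called, 3 in each direction, where 37.4% of all genes were called, 18.2% higher and 19.3% lower. In BALF against PLF 5 were called, 3 higher and 2 lower, where 40.3% of all genes were called, 19.5% higher and 20.8% lower. In PLF against BMDM 6 were called, 1 higher and 5 lower, where 36.5% of all genes were called, 18% higher and 18.4% lower. BALF of mouse 1 alone left 3 of the 5 calls against PLF. The median fold of the 8 genes was -2.11 in PLF against BMDM, where that of all genes was -0.014, and 1.02 in mexAM against PLF, where that of all genes was -0.024. In the other 4 comparisons it lay between -0.81 and 0.46. These comparisons share groups and are not independent of each other.

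The other receptors for apoptotic cells also divided the cell types. Of 24 such receptors 18 were tested, in lists that leave out the 9 genes above. In mexAM against BALF, where 30% of all genes were called, 5 were higher and 3 lower (median -0.20, all genes 0.0077). Cd93, a C-type lectin, rose in culture by 3.77 ± 0.25 (519 ± 32.8 against 32.9 ± 7.24 CPM), and Cd300lf, a phosphatidylserine receptor, by 2.36 ± 0.34 (415 ± 111 against 70.0 ± 24.4 CPM). Cd300lb fell by -3.0 ± 0.36 and Cd14, a lipopolysaccharide co-receptor that also tethers dying cells, by -2.28 ± 0.32. In mexAM against BMDM 4 were higher and 9 lower, where 21.5% of all genes were higher and 23% lower. In mexAM against PLF 6 were higher and 9 lower, where 28.4% of all genes were higher and 29.6% lower.

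Some receptors of this list differed widely between the groups of mice named with them. Timd4, which tethers phosphatidylserine on peritoneal macrophages, was at 109.7 to 191.1 CPM in PLF and had no count in mexAM or BMDM. Stab1, stabilin-1, was at 303 ± 95.9 CPM in BMDM and 12.6 ± 0.340 CPM in PLF, with no count in mexAM. Havcr2 (TIM-3) was at 93.8 ± 9.93 CPM in BALF and at 2.09 ± 1.04 CPM in PLF, a difference of 5.67 ± 0.31. Olr1, an oxidised lipid receptor, was higher in BALF than in BMDM by 6.00 ± 0.34 (335 ± 9.58 against 6.20 ± 1.77 CPM), and Msr1, a scavenger receptor, was lower in BALF than in PLF by -4.78 ± 0.37 (17.7 ± 8.73 against 589 ± 111 CPM). In BALF against BMDM 6 of the 18 were higher and 10 lower (median -0.94; 37.4% of all genes called). In BALF against PLF 5 were higher and 10 lower (40.3% of all genes called), and in PLF against BMDM 4 were higher and 10 lower (median -1.09; 36.5% of all genes called).

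**Figure D4:**
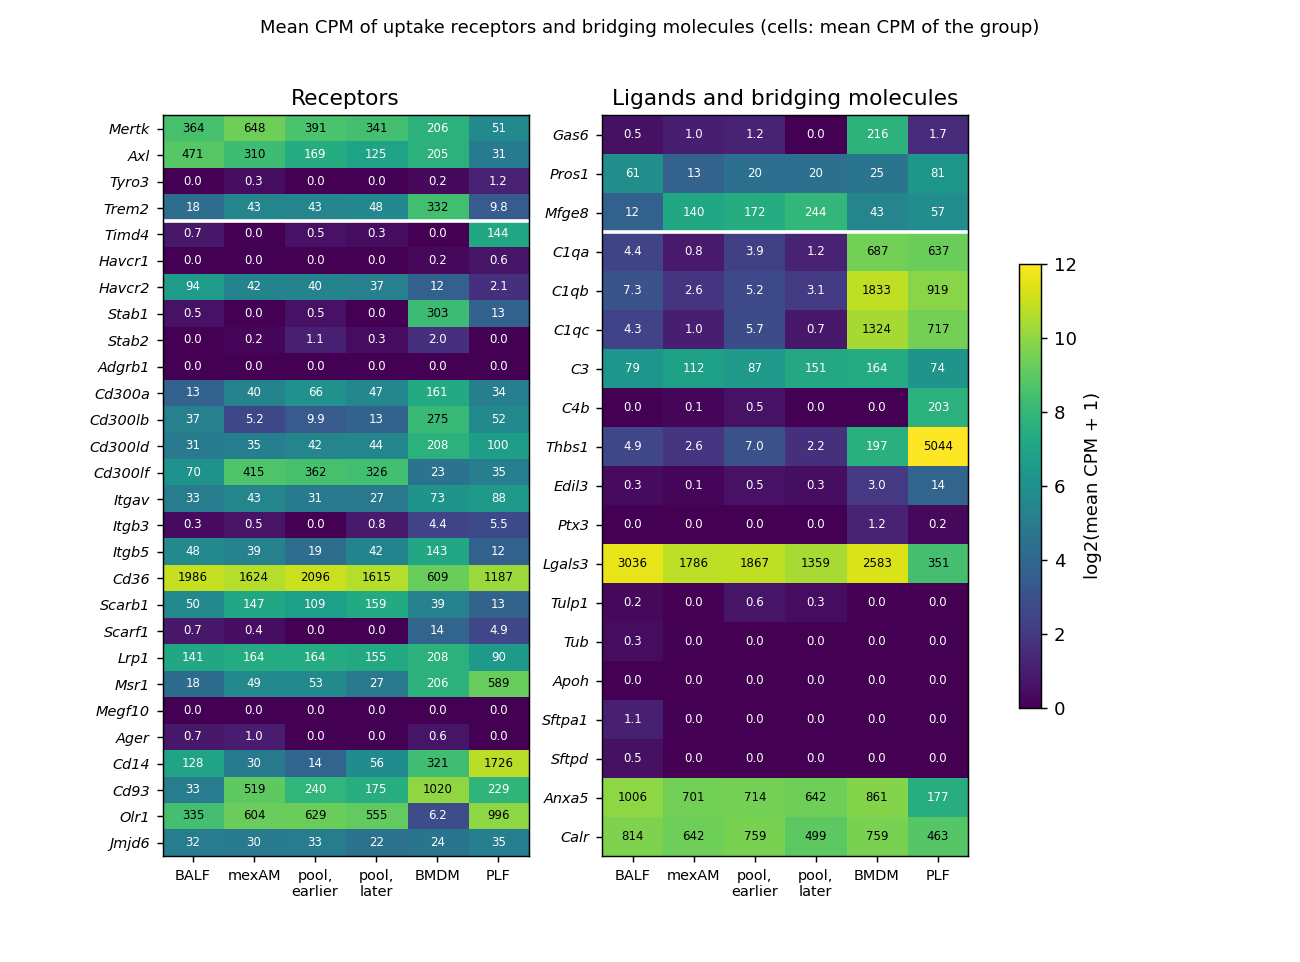
Mean CPM per group of receptors (left) and of ligands and bridging molecules (right), with colour for log2(mean CPM + 1) and the mean CPM written in each cell. Rows above the white line are the genes of the main list. PLF is the group with Timd4 and C4b, BMDM the group with Stab1 and Gas6, and the C1q genes are at 637 to 1833 CPM in BMDM and PLF and below 8 CPM in all alveolar groups.

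Of 10 other bridging molecules tested out of 16, 0 were higher and 5 lower in mexAM than in BMDM (median -2.07, all genes -0.0010), where 44.6% of all genes were called. In BALF 1 was higher and 6 were lower than in BMDM (median -1.89, all genes -0.026; 37.4% of all genes called), and in mexAM 4 were higher and 6 lower than in PLF (57.9% of all genes called). C1q, which opsonises dying cells, was led by C1qb at 1833 ± 200 CPM in BMDM and 7.34 ± 5.07 CPM in BALF (BALF minus BMDM -7.78 ± 0.40). Thbs1, thrombospondin, was at 5044 ± 536 CPM in PLF, 197 ± 27.4 CPM in BMDM and 2.61 ± 1.80 CPM in mexAM. Lgals3, galectin-3, was high in all groups but PLF, with 351 ± 33.4 CPM there and 3036 ± 207 CPM in BALF, and was lower in mexAM than in BALF by -0.97 ± 0.26. In mexAM against BALF 0 were higher and 5 lower (30% of all genes called), in BALF against PLF 3 were higher and 6 lower (40.3%), and in PLF against BMDM 3 were higher and 6 lower (36.5%).

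Of 18 engulfment genes tested, 5 were higher and 4 lower in mexAM than in BALF, where 15.2% of all genes were higher and 14.8% lower. Elmo2, a paralog of Elmo1, was higher in mexAM than in BALF by 1.10 ± 0.25, in BMDM by 1.65 ± 0.25 and in PLF by 3.0 ± 0.28, where Elmo1 was lower or not called. Rac2, a Rac GTPase of blood cells, was higher in mexAM than in BALF by 1.40 ± 0.23 (207 ± 26.8 against 68.1 ± 8.21 CPM). Of 17 genes of corpse digestion, 8 were higher and 2 lower in mexAM than in PLF and 8 were higher and 0 lower in BALF than in PLF, among them the lysosomal protease Ctsd (3.35 ± 0.33 and 2.14 ± 0.31) and the acid lipase Lipa (1.73 ± 0.35 and 2.58 ± 0.36). Of all genes, 28.4% were higher and 29.6% lower in mexAM than in PLF, and 19.5% higher and 20.8% lower in BALF than in PLF. In PLF against BMDM 0 digestion genes were higher and 6 lower, where 18% of all genes were higher and 18.4% lower. In mexAM against BALF 3 digestion genes were higher and 2 lower, with Atg7, an enzyme of autophagy and of LC3-associated phagocytosis, at +1.22 ± 0.20.

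Receptors for the signals that dying cells send out were mostly lower in alveolar cells than in BMDM. Of 8 tested, 7 were lower and 1 higher both in mexAM and in BALF than in BMDM (medians -3.13 and -3.94), where 23% and 19.3% of all genes were lower. Cx3cr1, the fractalkine receptor, was at 442 ± 238 CPM in BMDM and 0.817 ± 0.563 CPM in mexAM. P2ry2, a receptor for released nucleotides, went the other way, at 98.5 ± 16.9 CPM in mexAM, 35.3 ± 2.21 CPM in BALF and 7.85 ± 2.24 CPM in BMDM, higher in mexAM than in BALF by 1.27 ± 0.23. In mexAM against BALF 2 of the 8 were higher and 1 lower (30% of all genes called), and S1pr1, a sphingosine 1-phosphate receptor, was at 424 ± 40.7 CPM in PLF, beside the B cell transcripts named above and 145 ± 11.5 CPM of T and NK cell genes, whose part was not tested.

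The annexin list set Anxa1 beside its relatives and receptors. Of 10 genes tested, 1 was higher and 4 lower in mexAM than in BALF (30% of all genes called), 7 were higher and 2 lower in BALF than in BMDM (37.4%), and 6 were higher and 2 lower in BALF than in PLF (40.3%). Anxa4 fell in culture by -1.90 ± 0.18 (145 ± 18.0 against 469 ± 43.1 CPM). S100a10, the partner of annexin A2, fell by -3.24 ± 0.32, while S100a11, a known partner of Anxa1, rose by 1.04 ± 0.34. Fpr1, a formyl peptide receptor, was at 593 ± 84.9 CPM in mexAM and 20.5 ± 3.99 CPM in BMDM (mexAM minus BMDM 4.94 ± 0.30), and Fpr2, the receptor of annexin A1, at 240 ± 70.7 and 45.3 ± 9.53 CPM (2.49 ± 0.49).

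Of 13 genes tested in a list of TREM receptors and their partners, 1 was higher and 2 lower in mexAM than in BALF, where 30% of all genes were called. In mexAM against BMDM 6 were higher and 3 lower, where 44.6% of all genes were called. Tyrobp, which encodes DAP12, was at 1796 ± 248 CPM in mexAM and 1013 ± 154 CPM in BALF (+0.62 ± 0.19). Apoe, a lipid carrier that binds Trem2, was at 8294 ± 939 CPM in BMDM, 5921 ± 1660 CPM in PLF, 50.6 ± 10.1 CPM in BALF and 9.56 ± 5.01 CPM in mexAM. Gpnmb, a glycoprotein of lipid-laden macrophages, was at 2727 ± 736 CPM in BMDM and 24.3 ± 6.85 CPM in PLF. BMDM was thus high in Trem2, Apoe and Gpnmb, and PLF was high in Apoe but low in Trem2 and Gpnmb.

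Other genes around the TAM pathway were counted in the same way, beside 30% of all genes called in mexAM against BALF, 44.6% against BMDM and 57.9% against PLF. Of 6 tested genes of ligand carboxylation and receptor shedding, 1 was higher and 1 lower in mexAM than in BALF, with Furin at +0.75 ± 0.24. Of 10 genes of TAM feedback, 1 was higher and 3 lower in mexAM than in BALF, 1 higher and 8 lower than in BMDM, and 0 higher and 7 lower than in PLF (median -3.83). Socs3, a cytokine signalling inhibitor induced by TAM receptors, was at 245 ± 141 CPM in PLF, 25 ± 11.7 CPM in BMDM and 4.73 ± 1.08 CPM in mexAM. Of 15 transcription factors and targets linked to uptake receptors, 5 were higher and 4 lower in mexAM than in BALF. Maf, a transcription factor of macrophages, was at 2463 ± 698 CPM in BMDM and 4.44 ± 0.842 CPM in BALF, and so was high in the group that was high in Gas6 and Trem2. Of 7 do-not-eat-me genes 0 were higher and 1, Cd24a, was lower in mexAM than in BALF (-1.46 ± 0.45).

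The cultures from lavage pools were compared with the groups of mice after the passages of each pool were summed, which left 2 pools. Against mexAM, 0 of the 8 tested genes were called by edgeR, where 0.698% of all genes were called, 0.519% higher and 0.179% lower. At an unadjusted p under 0.05 there were 3 of the 8, beside 1494 of 10602 genes, and DESeq2 called 1, Axl. Over all genes 74.3% of the calls were higher in the pools by edgeR and 54.5% by DESeq2. Axl was at 156.1 and 111.4 CPM in pool 1 and at 182.4 and 138.0 CPM in pool 2, against 392.6, 357.6 and 179.6 CPM in mexAM, a difference of -1.16 ± 0.33 (adjusted p = 0.0985). It was called by DESeq2 (-1.19, adjusted p = 0.0317), at the later passage of each pool alone (-1.36, adjusted p = 0.0465), with no filter (-1.15, adjusted p = 3.55e-04) and without mexAM of mouse 4 (-1.47, adjusted p = 0.0246). Mertk was at -0.80 ± 0.30 (adjusted p = 0.225), and was called with no filter (-0.80, adjusted p = 0.0365). Pros1 was at 0.66 ± 0.26 (adjusted p = 0.253).

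Against BALF, 4 of the 8 genes were called in the pools, 2 in each direction, where 26% of all genes were called, 13.6% higher and 12.4% lower. Mfge8 was higher by 3.95 ± 0.46 (adjusted p = 1.63e-05), with 143.8 to 295.2 CPM in the pools. Axl was lower by -1.96 ± 0.34 (adjusted p = 3.77e-04) and Pros1 by -1.82 ± 0.25 (adjusted p = 2.64e-05), with 19.3 to 20.2 CPM of Pros1 in all 4 pool libraries. Trem2 was higher by 1.12 ± 0.39 (adjusted p = 0.0452). Its call was lost with the block (+1.11, adjusted p = 0.0618), at the earlier passage alone (+1.05, adjusted p = 0.102) and without any 1 BALF library or pool (+0.86 to +1.34, adjusted p = 0.0622 to 0.273), as well as with BALF of mouse 1 alone (+1.06, adjusted p = 0.285). Mertk (-0.17 ± 0.30, adjusted p = 0.730) and Anxa1 (-0.35 ± 0.49, adjusted p = 0.648) were not called. The comparisons of mexAM and of the pools with BALF share the BALF libraries, so their folds are 2 readings against the same controls.

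Between passages, 0 of 8 genes were called by edgeR and 0 by DESeq2, where edgeR called 0.0095% of all genes. At an unadjusted p under 0.05 there was 1 of the 8, Gas6, which rests on 2 counts, beside 947 of 10527 genes. Mertk went from 501.0 to 295.9 CPM in pool 1 and from 281.5 to 386.5 CPM in pool 2, so the pools went in opposite directions with counting intervals that do not meet. Axl went from 156.1 to 111.4 CPM in pool 1 and from 182.4 to 138.0 CPM in pool 2. Mfge8 went from 200.4 to 295.2 CPM and from 143.8 to 192.4 CPM. Axl was lower and Mfge8 higher at the later passage of both pools, with counting intervals that do not meet. Over 2 pools neither was called (Axl -0.51 ± 0.35, adjusted p = 0.719, and Mfge8 0.42 ± 0.43, adjusted p = 0.848). The counting intervals take each count as a separate molecule, while collapsing of identifiers is not given, so they may be too narrow. Anxa1 went from 736.9 to 387.9 CPM in pool 2, while its counting intervals overlapped in pool 1, and it was not called (-0.50 ± 0.54, adjusted p = 0.859). Passages 8 and 13 of pool 1 and passages 5 and 10 of pool 2 differ, so passage and pool are partly mixed.

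**Figure D5:**
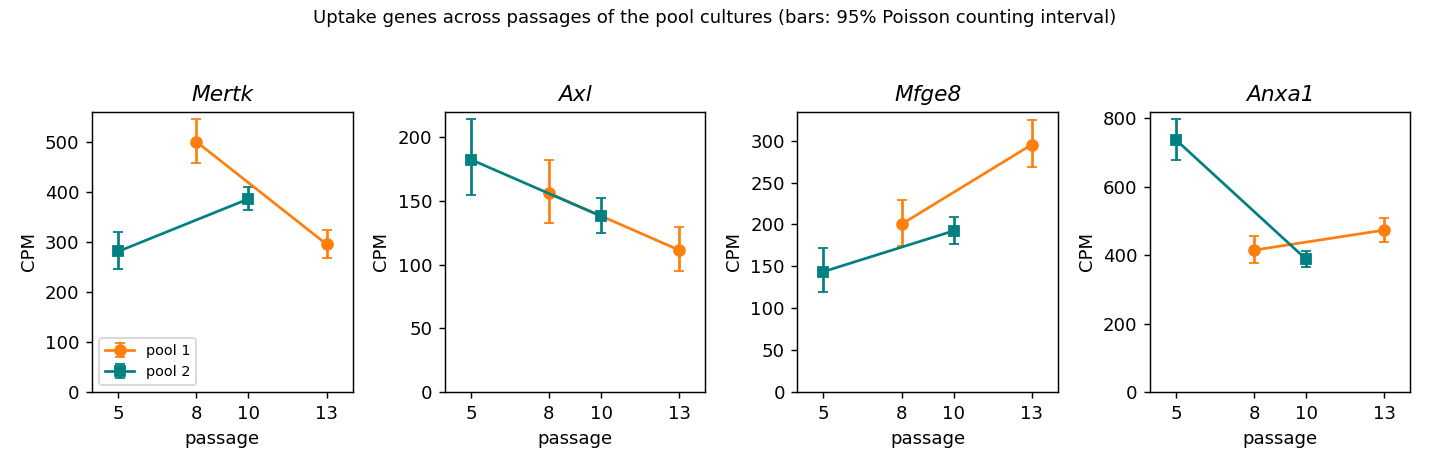
CPM of Mertk, Axl, Mfge8 and Anxa1 (vertical axes from 0) against passage in pool 1 and pool 2, with bars for the 95% Poisson counting interval. Axl is lower and Mfge8 higher at the later passage of both pools, Mertk goes opposite ways, and Anxa1 goes from 736.9 to 387.9 CPM in pool 2 and from 415.2 to 473.7 CPM in pool 1.

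The genes whose pattern over the 16 libraries was most like that of each uptake gene were taken from 7198 candidates by Pearson's r of log2 CPM. For Mertk they were Pnpla7 (0.97), Plekhb2 (0.97) and Abhd12 (0.96), and for Axl they were Gstm1 (0.94), Mavs (0.93) and Anxa5 (0.92). For Gas6 they were Ms4a14 (0.98), P2rx4 (0.98) and B3galnt1 (0.97), and for Trem2 they were Hacd4 (0.94), Milr1 (0.94) and Hpgds (0.93). Pros1 was nearest to Hspa13 (0.97), Mfge8 to Lig1 (0.95), Elmo1 to Creb1 (0.96) and Anxa1 to Cstb (0.83). Libraries of a cell type cluster, so these values describe shared cell-type patterns, with no test. Among the uptake genes themselves, Mertk ran against Elmo1 (-0.72) and Pros1 (-0.69).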

How the data were processed

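RNA of 16 libraries was made into QuantSeq 3' libraries with molecular identifiers, per the labels' protocols. The deposited files hold raw counts per Ensembl gene for each library, on GRCm38 (mm10) per the submitters' processing notes. For the aligner, counter, annotation release, strand setting and any collapsing of identifiers, the entry is "not given in the sources used here". The 5 lines that name no gene were left out of all totals, of which reads outside genes were 10.6% to 29.9% of a library and ambiguous reads 0.450% to 0.625%. Symbols came from GENCODE M21 (47224 of 47643 identifiers named). CPM was computed from the deposited counts.

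Counts were tested with edgeR 4.0.16 (filterByExpr, TMM, robust quasi-likelihood fit, R 4.3.3), adjusted by Benjamini-Hochberg over all genes tested. The BALF, BMDM, mexAM and PLF comparisons were fitted on 12 libraries (10011 genes), the pools against mexAM and BALF with the passages of each pool summed (10602 genes), and later against earlier passages on 16 libraries (10527 genes). Standard errors are the log2 fold change divided by the root of F. With a group of 2 pools, the spread was shared across groups. The fit was also run on simulated counts in which few genes changed and all genes had the same dispersion. That setting is simpler than these data, so it checks the code and not the calls made here.

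The labels name mice 1, 2 and 4 in each of the 4 groups, so the mouse was taken as the same animal, and its number was used as a block in an alternative fit. Deviations from group means in same-numbered libraries correlated between -0.121 and 0.221 (18 pairs, median -0.0213). No label says that cultures of a mouse were separate, and no 2 libraries were identical. P-values therefore measure the spread between these samples, which may be in part technical.

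Alternatives were DESeq2 1.42.0, library-total scaling, no filter, removal of Gm42418 and mitochondrial genes (38 genes), the mouse block, single passages, and leaving out each replicate. BALF of mouse 1 alone was added after seeing the data. The genes and lists were chosen with earlier results of these data known, so their direction is not independent evidence. All 9 genes were reported in every comparison. From each list up to 4 called genes with the largest fold were eligible to be named, if groups did not overlap and the higher one reached 10 CPM, and a selection is given. Other levels of these genes and S1pr1 were added for contrast. Likeness used log2 CPM (prior count 2) of genes with at least 20 CPM in a group. Figures were drawn with matplotlib 3.10.9.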

Additional observations from a re-analysis of the deposited data

Results flagged for a closer look

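Mertk changed in opposite directions with passage in the pools. The later minus the earlier passage was -205.08 CPM in pool 1, passages 8 and 13, and 105.05 CPM in pool 2, passages 5 and 10. The difference between the pools was not tested, since each pool has 1 library per passage.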

How the results depend on the processing

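Over all alternatives 713 fold changes of single uptake genes kept their direction and side of the threshold, 37 lost a call, 21 gained one and 17 changed sign, none of which had been called. Depth limits Tyro3, with 8 counts in all, and Gas6 outside BMDM, with at most 7 counts in a group. The cause of the changes below was not tested, except that leaving out libraries leaves fewer samples.

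With BALF of mouse 1 alone, the genes called were 2429 in BALF against BMDM (3747 with all BALF), 1318 in mexAM against BALF (3007 with all) and 1403 in pools against BALF (2757 with all), and uptake genes called were 3 in BALF against PLF and 2 in mexAM against BALF. Leaving out each replicate gave 1604 to 2427 genes for pools against BALF, 6 to 99 for pools against mexAM (74 with all) and 0 to 0 for passages (1 with all), and 2 to 4 uptake genes for mexAM against BALF and 0 to 1 for pools against mexAM. For pools against mexAM, DESeq2 called 187 genes, the earlier passage alone 11, the later alone 188, no filter 380, and uptake genes called were 1, 0, 1 and 2. For passages DESeq2 called 32 genes and no filter 80.

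The replicate block was the mouse number among the groups of mice and the pool number between passages, and pools were paired with no mouse. With it, pools against mexAM gave 135 genes and passages 0. It left 2833, 4338 and 5633 genes in mexAM against BALF, BMDM and PLF. It changed calls for Axl, Mertk and Trem2 in mexAM against BALF and for Trem2 in pools against BALF, and no other call of an uptake gene.

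Uncalled folds that changed sign were as follows, with ranges over leaving out each replicate. Anxa1 ranged from -0.40 to 0.42 in BALF against BMDM (positive without BMDM of mouse 4) and from -1.01 to 0.13 between passages (positive without pool 2), and was at 0.030 in pools against BALF at the earlier passage. Elmo1 ranged from -0.37 to 0.32 between passages (positive without pool 1; 0.023 with library totals) and from -0.16 to 0.17 in pools against mexAM (negative without mexAM of mouse 4; -0.015 at the later passage), and was at 0.025 in pools against BALF with library totals. Gas6 ranged from -0.26 to 1.10 in mexAM against BALF (negative without mexAM of mouse 2) and was at 0.20 in pools against mexAM at the earlier passage. Mertk ranged from -0.82 to 0.37 between passages (positive without pool 1) and from -0.44 to 0.022 in pools against BALF (positive without BALF of mouse 1; 0.030 with library totals). Trem2 ranged from -0.14 to 0.42 between passages (negative without pool 1) and from -0.21 to 0.59 in pools against mexAM (-0.08 without mexAM of mouse 1, -0.21 without mexAM of mouse 4 and -0.19 without pool 2).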

Other observations

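Csf1r, the receptor for the macrophage growth factor M-CSF, was at 93, 81 and 153 CPM in BALF of mice 1, 2 and 4 and at 38, 32 and 16 CPM in mexAM. It was at 1731, 1641 and 1326 CPM in BMDM and at 463, 560 and 534 CPM in PLF. BALF and mexAM, the groups of mice with the most Mertk, thus held the least Csf1r. Between BMDM and PLF the order went the other way, with more of both genes in BMDM. No test was made on this relation.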
